A study of Mus musculus with 6 samples.

Results

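The Hedgehog pathway genes described here are 9 genes that carry the signal from the cell surface to transcription, namely Ptch1, Hhip, Smo, Boc, Cdon, Gas1, Gli1, Gli2 and Gli3. They were chosen by name, and all 9 were found once among the 41126 genes of the all-gene table. RNA-seq was performed on 6 cultures of dermal fibroblasts from postnatal day 4 mice of CD1, C57Bl6 background, with 3 cultures in each group. The control group received an adenovirus coding for GFP (AdGFP) and is labelled +/+. The GOF group received an adenovirus coding for Cre (AdCre) and is labelled Ctnnb1{delta}ex3/+, an allele that lacks exon 3, which holds the residues that mark β-catenin for degradation, so that the protein is stabilized. The study describes the controls as cells with the same transgene, whereas the labels give +/+ for them, and the labels' treatment text names AdCre for every culture. Excision was not read from these data. Because the virus differed between the groups along with the allele, the effects of Cre and of stabilized β-catenin cannot be told apart. The 6 cultures came from 4 animals. Animal A supplied control 0 and GOF 2, animal B supplied control 2 and GOF 0, and control 1 and GOF 1 each had an animal of their own. By these labels, controls 0 and 2 share the inherited allele of GOF 2 and GOF 0. For them +/+ cannot mean mice without the allele, while the genotype of control 1 stays unsettled.

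Hedgehog ligands act by binding Ptch1, a membrane protein that otherwise holds back Smo, a 7-pass receptor-like protein that works at the primary cilium. Boc, Cdon and Gas1 are co-receptors that help Ptch1 bind the ligand, while Hhip binds the ligand and keeps it from the receptor. Freed Smo switches the Gli transcription factors, of which Gli2 acts mainly as an activator and Gli3 mainly as a repressor, and Ptch1, Hhip and Gli1 are themselves classical targets of the pathway. In skin, Hedgehog signalling from the epidermis acts on dermal cells, above all in the dermal papilla of the growing hair follicle.

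The libraries held 35980831 to 42834467 fragments, and a count of 0 allows up to 3 fragments, or 0.07 to 0.0834 CPM (counts scaled by the library total), counting error only. The β-catenin target Axin2 rose from 0.152 ± 0.0218 to 17.5 ± 2.66 FPKM (SD, n = 3; log2 fold change 6.98, edgeR adjusted p = 4.95e-05), Lef1 and Nkd1, further targets, rose by 2.76 and 2.54 on the log2 scale (edgeR adjusted p = 0.00118 and 0.000452), and Ctnnb1 itself had a log2 fold change of -0.05 (edgeR adjusted p = 0.844). FPKM is the number of fragments per length of transcript, scaled for the size of the library, and all fold changes are from edgeR fits to the estimated fragments unless stated. A gene is said to have risen or fallen where its fold change was over 2 and its adjusted p under 0.05. Lef1 had 7, 8 and 7 fragments in controls and 48, 54 and 54 in GOF. It thus passed the filter on low counts through its GOF libraries. On log2(FPKM + 1), which understates the change of low genes, limma gave Lef1 a log2 fold change of 0.41. Of 10 fibroblast markers, all were tested, and their summed FPKM was 4290 to 5050 in controls and 4100 to 4250 in GOF. Dcn and Col1a2 of this list fell (log2 fold change -1.67 and -1.18, edgeR adjusted p = 0.00584 and 0.0375) and none rose. Of 10 keratinocyte markers, 3 were tested and 2 rose, namely Dsp and Perp, which code for junction proteins. The list's summed FPKM was 2.05 to 3.4 in controls and 12.3 to 39.4 in GOF, with the defining gene Krt14 at 0 in every library but GOF 2, which had 2 fragments. Of 9 skeletal muscle markers, 3 were tested and 1 rose, the actin gene Acta1, with a summed FPKM of 23.6 to 28.2 against 139 to 173, while Pax7 was at 0 in every library and Myod1 had 1 fragment in GOF 2 only. The part of these genes in the results on the Hedgehog pathway was not tested. In bulk cultures such as these, fewer cells of a type and less RNA per cell cannot be told apart.

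The region just before a RefSeq transcription start is given for Hhip, Gas1 and Gli2, the members that rose or fell, and for Ptch1, the other classical target measured here, because binding of Gli or Tcf/Lef factors to such regions is a usual means of control. Each is the 250 bases upstream of the start in RefSeq (GRCm38.p6), 5′ to 3′ on the gene's own strand. RefSeq entries were at hand for 7 of the 9 members. Gli1 and Boc had none.
Hhip, chr8:80058009-80058258, minus strand: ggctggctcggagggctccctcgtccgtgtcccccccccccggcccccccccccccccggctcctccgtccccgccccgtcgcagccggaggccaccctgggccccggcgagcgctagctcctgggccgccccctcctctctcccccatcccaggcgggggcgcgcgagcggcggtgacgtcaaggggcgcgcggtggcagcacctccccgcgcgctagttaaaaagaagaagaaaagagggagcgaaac
Gas1, chr13:60177536-60177785, minus strand: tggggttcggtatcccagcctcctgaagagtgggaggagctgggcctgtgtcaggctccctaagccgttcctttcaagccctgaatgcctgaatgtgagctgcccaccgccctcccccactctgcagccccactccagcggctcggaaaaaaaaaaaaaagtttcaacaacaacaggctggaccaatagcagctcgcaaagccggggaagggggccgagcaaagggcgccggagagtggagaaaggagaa
Gli2, chr1:119053620-119053869, minus strand: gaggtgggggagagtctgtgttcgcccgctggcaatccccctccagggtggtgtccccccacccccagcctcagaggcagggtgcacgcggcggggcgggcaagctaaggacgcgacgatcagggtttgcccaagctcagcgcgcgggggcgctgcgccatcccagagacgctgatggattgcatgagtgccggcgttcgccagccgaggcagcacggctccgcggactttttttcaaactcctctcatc
Ptch1, chr13:63565736-63565985, minus strand: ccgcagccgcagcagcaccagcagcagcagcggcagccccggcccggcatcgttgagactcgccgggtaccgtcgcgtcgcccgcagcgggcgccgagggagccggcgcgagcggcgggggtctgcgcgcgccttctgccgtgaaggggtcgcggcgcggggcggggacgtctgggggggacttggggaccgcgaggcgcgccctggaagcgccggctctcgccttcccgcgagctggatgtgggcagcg
The window of Ptch1 precedes a RefSeq start that lies 7863 bases inside the gene as annotated in GENCODE, so the region before its outermost start is not shown. None of the printed regions overlapped an exon of its gene. The window of Cdon, searched but not printed, precedes a start 30948 bases inside the gene and overlaps an exon of Cdon. The Gli motif GACCACCCA, its core CCACCCA, which lies within it, and the Tcf/Lef core CTTTGA were searched on both strands, and no capitals appear because none of the 7 regions held any of them. Over 32851 RefSeq promoters of the same length, 0.225% held the Gli motif, 8.11% its core and 13.8% the Tcf/Lef core. Absence of a match says only that these letters were not in this window.

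Stabilized β-catenin was accompanied by a large rise of Hhip, a fall of Gas1 and Gli2, and smaller differences in Smo and Gli3. Gli1 was at or near 0 in both groups. Of the 9 members, 8 passed the filter on low counts, 1 rose and 2 fell. Over all 15462 genes tested, 6.69% rose and 5.64% fell. By adjusted p alone, with no fold threshold, 2 members were higher and 3 lower, where the shares of all genes were 11.1% and 10.2%. The median log2 fold change of the 8 tested members was -0.26, and that of all tested genes was -0.02. FPKM ranges were separate between control and GOF for 4 of the 8, as they were for 39.5% of all genes tested.

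**Figure D1:**
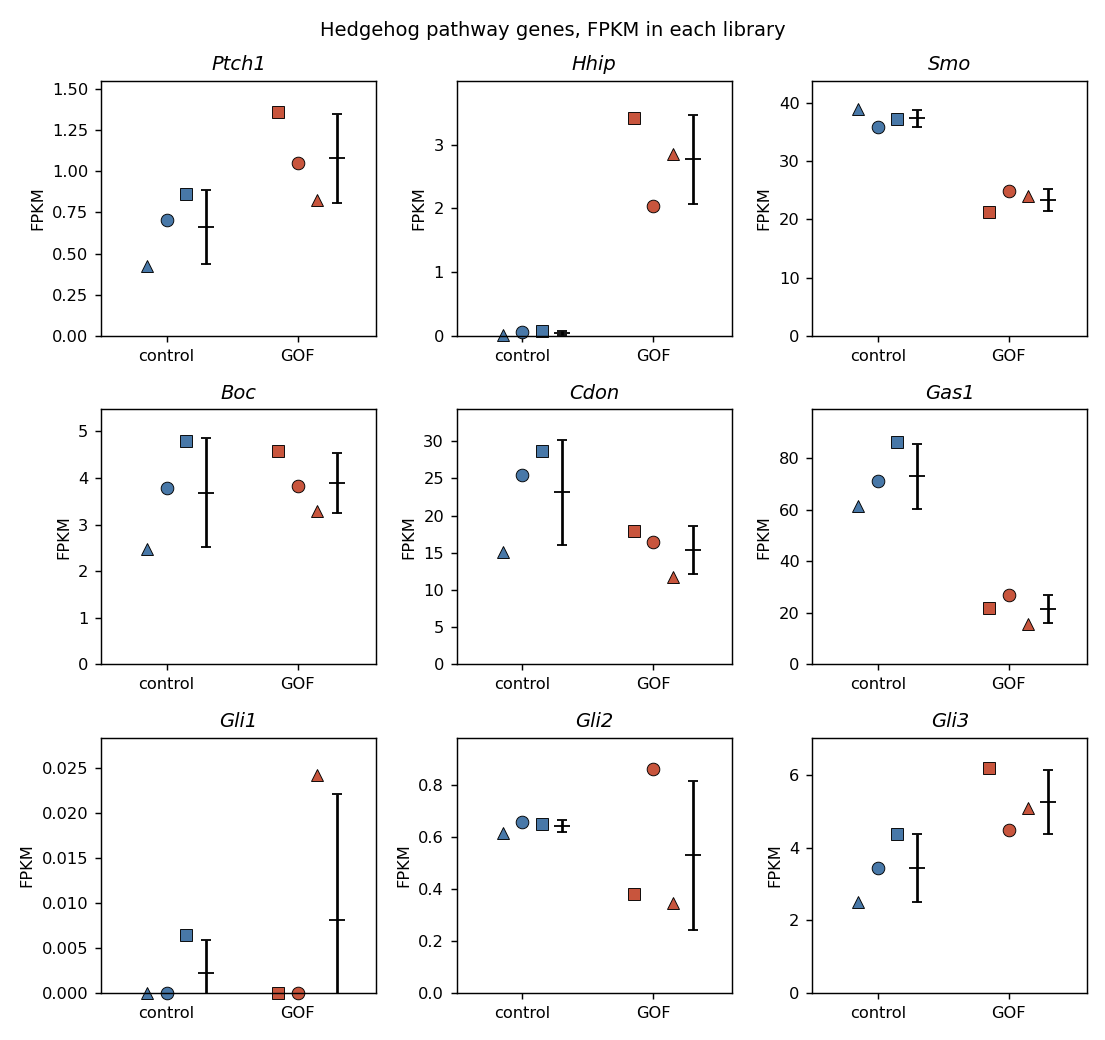
FPKM (vertical axis, from 0, a different scale in each panel) of the 9 members in each of the 3 control (blue) and 3 GOF (red) libraries, with the group mean and SD in black. Triangles mark animal A, squares animal B and circles the 2 animals with 1 culture each. The groups stand apart for Hhip, Smo, Gas1 and Gli3 and overlap for Ptch1, Boc, Cdon and Gli2, and Gli1 lies at or near 0.

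Levels per transcript length differed widely among the members. In controls, Gas1 was highest at 73 ± 12.6 FPKM (SD, n = 3), followed by Smo at 37.4 ± 1.48 and Cdon at 23.1 ± 7.13. Boc at 3.69 ± 1.17 and Gli3 at 3.44 ± 0.936 came next and their ranges overlapped, as did those of Ptch1 at 0.662 ± 0.223 and Gli2 at 0.642 ± 0.0237. Hhip lay below all of them but Gli1, at 0.0509 ± 0.035. In GOF the order had shifted, with Smo at 23.4 ± 1.88, Gas1 at 21.5 ± 5.59 and Cdon at 15.4 ± 3.15 at the top, where Smo overlapped with Gas1 and Gas1 with Cdon. Hhip at 2.77 ± 0.695 had moved next to Gli3 at 5.26 ± 0.873 and Boc at 3.9 ± 0.644, its range overlapping that of Boc, above Ptch1 at 1.08 ± 0.271 and Gli2 at 0.53 ± 0.288.

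Hhip, the decoy that binds Hedgehog ligands, had the largest difference of the members. The gene lies at chr8:79965851-80058006 on the minus strand of mm10. In controls it had 2, 8 and 16 fragments (control 0, 1 and 2), and in GOF 580, 371 and 419 (GOF 0, 1 and 2). All 3 GOF libraries were far above all 3 controls, which lay close to the detection limit, so that the gene passed the filter on low counts through its GOF libraries. Its log2 fold change was 5.67 ± 0.48 (SE), a 50.8-fold rise with an edgeR adjusted p of 4.41e-04. By size of rise it ranked 33 among all 15462 genes tested. Because the controls hold so few fragments, the size of the fold is uncertain, and on the log2(FPKM + 1) scale, which understates the change of low genes, limma gave 1.83. Animal A had 2 fragments in its control culture and 419 in its GOF culture, and the log2 ratio within animal B was 5.19.

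Ptch1, the receptor and a classical target of its own pathway, lies at chr13:63508328-63573598 on the minus strand. Its FPKM was 0.422, 0.702 and 0.863 in controls and 1.36, 1.05 and 0.825 in GOF. GOF 2 lay within the range of the controls, and the difference was not beyond the spread between libraries (log2 fold change 0.67 ± 0.31, SE, edgeR adjusted p = 0.163, exact two-sided permutation p = 0.2, n = 3). Within the animals that gave both cultures the log2 ratio was 0.95 in A and 0.67 in B. The balance between Hhip and Ptch1 was compared within each library. There were 0.029, 0.0584 and 0.0994 Hhip fragments per Ptch1 fragment in controls and 2.28, 2.03 and 2.67 in GOF. This ratio follows from the difference in Hhip and is given as a description, and control 0 rests on 2 fragments of Hhip.

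Smo, the transducer that Ptch1 restrains, lies at chr6:29735503-29761365 on the plus strand. Its FPKM was 38.9, 35.9 and 37.3 in controls and 21.3, 24.9 and 24.0 in GOF. The groups were tight and did not overlap. The log2 fold change was -0.72 ± 0.11 (SE, edgeR adjusted p = 0.0042), a 1.65-fold difference that is past the threshold on adjusted p and short of the one on fold. In both animals the GOF culture was lower, by log2 ratios of -0.69 in A and -0.79 in B.

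Among the co-receptors, Gas1 fell while Boc and Cdon did not pass the test. Gas1, a membrane-anchored protein named for its expression in growth-arrested fibroblasts, lies at chr13:60174405-60177365 on the minus strand. Its FPKM was 61.5, 71.2 and 86.4 in controls and 22, 26.8 and 15.7 in GOF, so that the highest GOF library was well below the lowest control. The log2 fold change was -1.79 ± 0.18 (SE, edgeR adjusted p = 0.00094), a 3.47-fold fall, and the log2 ratios within animals A and B were -1.98 and -1.97. Boc, at chr16:44485049-44558897 on the minus strand, had 2.47, 3.79 and 4.8 FPKM in controls and 4.58, 3.82 and 3.3 in GOF. The groups of Boc overlapped fully (log2 fold change 0.03 ± 0.24, SE, edgeR adjusted p = 0.947), and the sign of this small value turned with the scaling. Cdon, which like Boc is a cell-surface protein of the immunoglobulin superfamily, lies at chr9:35421128-35507652 on the plus strand. Its FPKM was 15.1, 25.5 and 28.7 in controls and 17.9, 16.4 and 11.8 in GOF, with control 0 among the GOF libraries. Its log2 fold change was -0.54 ± 0.28 (SE, edgeR adjusted p = 0.206), and without control 0 it was -0.79 (edgeR adjusted p = 0.0386). The log2 ratios of Cdon within animals A and B were -0.33 and -0.53. With the animal as a block its log2 fold change was -0.43 (edgeR adjusted p = 0.0649).

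The 3 co-receptors together had 79, 101 and 120 FPKM in controls and 44.5, 47.1 and 30.8 in GOF. Gas1 made up 77.8%, 70.8% and 72.1% of this sum in controls and 49.5%, 57% and 50.9% in GOF. Both follow from the fall of Gas1, the most abundant of the 3 in controls, and are given as a description. Control 0 had the lowest FPKM of the 3 controls for 7 of the 8 tested members, Smo being the exception.

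The Gli factors differed from one another. Gli1, the activator that is itself a target of Hedgehog signalling, lies at chr10:127329882-127341974 on the minus strand and had 5 fragments in all among 239872824. Control 2 held 1 of them and GOF 2 held 4, and the other 4 libraries were at 0. It was not tested, and no fold is given because the mean of each group was under the limit of 3 fragments. Gli3, at chr13:15463235-15730026 on the plus strand, had 2.5, 3.44 and 4.37 FPKM in controls and 6.2, 4.48 and 5.09 in GOF. The lowest GOF library was only just above the highest control. Its log2 fold change was 0.65 ± 0.18 (SE, edgeR adjusted p = 0.0384), past the threshold on adjusted p with a fold under 2, and the log2 ratios within animals A and B were 0.94 and 0.58. With 1 library left out the adjusted p was under 0.05 without control 2 alone (0.0372), and it was 0.0508 to 0.133 without any other.

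Gli2 lies at chr1:118834132-119053619 on the minus strand. It had 136, 160 and 171 fragments in controls and 98, 78 and 53 in GOF, without overlap. The log2 fold change was -1.07 ± 0.27 (SE, edgeR adjusted p = 0.0274), a 2.1-fold fall that lies close to both thresholds. Within animals A and B the log2 ratios on fragments were -1.6 and -0.79, that of B being short of a fold of 2. The call rests on most of the libraries, since leaving out control 1, control 2 or GOF 1 gave adjusted p-values of 0.0858, 0.0836 and 0.0636 with log2 fold changes of -1.09, -1.04 and -1.11, and leaving out GOF 2 gave a log2 fold change of -0.86 (edgeR adjusted p = 0.0396). On FPKM the groups of Gli2 overlapped, with 0.615, 0.659 and 0.651 in controls and 0.381, 0.862 and 0.348 in GOF. The library that differed between the scales was GOF 1, where 100 fragments of Gli2 gave 1.11 FPKM, against 0.38 to 0.452 in controls and 0.389 and 0.656 in GOF 0 and GOF 2. On log2(FPKM + 1), limma gave a log2 fold change of -0.12 (adjusted p = 0.568). Within each library, there were 5.88, 7.62 and 8.4 Gli3 fragments per Gli2 fragment in controls and 21.8, 20.6 and 34.2 in GOF. These ratios follow from the differences in Gli2 and Gli3 already given. They are not corrected for the lengths of the transcripts, and so do not compare genes. Between libraries they depend on the scale, as Gli2 of GOF 1 was below every control on fragments (78) and above every control on FPKM (0.862). The ratio was not taken on FPKM.

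**Figure D2:**
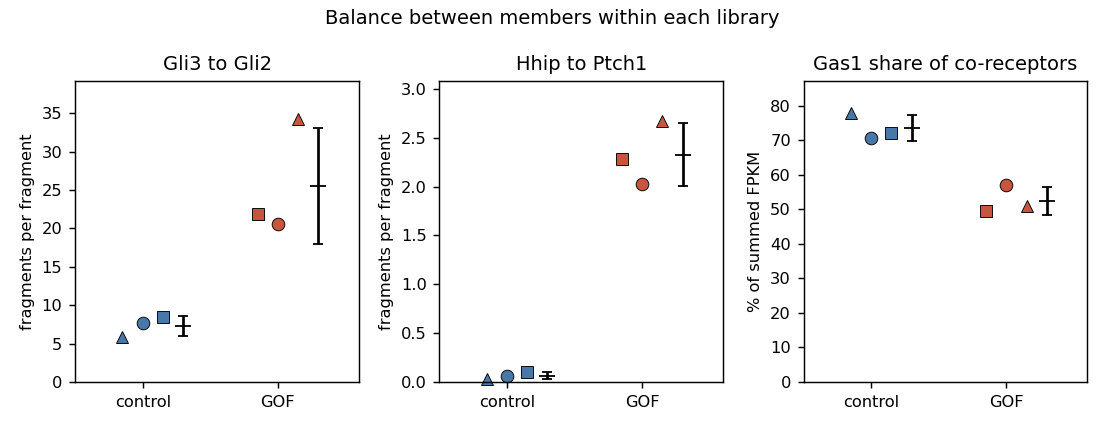
Gli3 fragments per Gli2 fragment (left), Hhip fragments per Ptch1 fragment (middle) and the share of Gas1 in the summed FPKM of Gas1, Boc and Cdon in percent (right), each axis from 0, for each library with group mean and SD. The GOF libraries (red) lie above the controls (blue) in the first 2 panels, at 25.5 ± 7.52 against 7.3 ± 1.29 and 2.33 ± 0.323 against 0.0623 ± 0.0354, and below them in the last, at 52.4% ± 3.99 against 73.6% ± 3.72. The left panel holds for fragments only, since Gli2 of GOF 1 lay above the controls on FPKM.

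**Figure D3:**
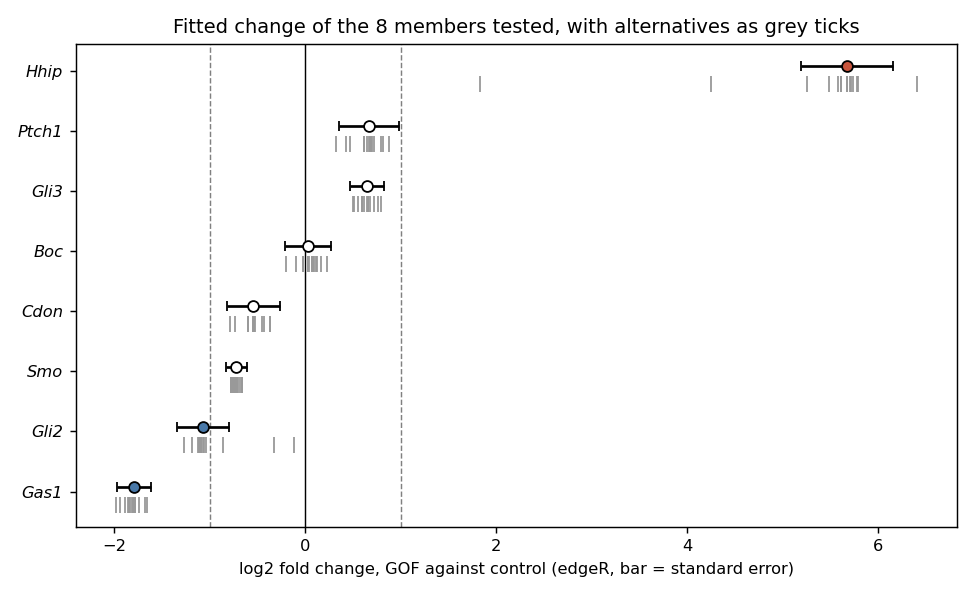
Log2 fold change (horizontal axis) of GOF against control for the 8 tested members, fitted with edgeR (circles, bars are standard errors), with the same quantity under each alternative processing as grey ticks. Filled circles mark members that rose (red) or fell (blue), and dashed lines mark a fold of 2. Hhip and Gas1 stay beyond the dashed lines under every alternative shown, whereas Gli2 crosses back under 3 of them and Boc lies around 0.

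Further genes of the pathway came from a list of 81 others, of which 76 were tested. Of these 4 rose and none fell (0 by edgeR, DESeq2 and limma, with 16 lower and 12 higher at an unadjusted p under 0.05). Of all genes tested, 6.69% rose and 5.64% fell. Those 16 and 12 are 21.1% and 15.8% of the 76, where 17.3% and 17.6% of all genes tested were lower and higher at that level. FPKM ranges were separate for 33, or 43.4%, against 39.5% of all genes tested. By adjusted p alone, 8 were higher and 9 lower, where the shares of all genes tested were 11.1% and 10.2%. Of these 17, 6 kept an edgeR adjusted p under 0.05 whichever library was left out, namely Lrp2, Wdr35, Ccnd1, Evc, Cc2d2a and Rpgrip1l. With the animal as a block 10 of the 17 stayed under 0.05, while Evc2, Fbxw11, Ift122, Ift172, Kif7, Mks1 and Spop did not (edgeR adjusted p = 0.0519 to 0.126). The median log2 fold change of the 76 was 0.03. The count of 4 higher became 7 without GOF 2, and that of 0 lower became 3 without control 0 and 1 without each of GOF 0, GOF 1 and GOF 2.

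Of the ligands, Shh had no fragment in any library, and Ihh had at most 4 fragments in any, so neither was tested. Dhh, the ligand best known from Schwann cells and the testis, had 13, 5 and 3 fragments in controls and 32, 13 and 58 in GOF. On FPKM its groups were barely apart, with control 0 at 0.183 and GOF 1 at 0.185, and on fragments these libraries tied at 13. The gene passed the filter on low counts through its GOF libraries. Its log2 fold change was 2.18 ± 0.72 (SE, edgeR adjusted p = 0.0671). That value missed the threshold here but passed it in 5 of 14 alternatives, among them DESeq2 (adjusted p = 0.0279) and the fits without control 0 (3.07, adjusted p = 0.0325) and without GOF 1 (2.55, adjusted p = 0.0492), and the fit with the animal as a block (2.41, adjusted p = 0.017). Leaving out control 1, control 2 or GOF 2 gave lower values of 1.93, 1.78 and 1.59 (edgeR adjusted p = 0.198, 0.171 and 0.174). The summed FPKM of the Schwann cell or melanocyte markers was 12.4 to 16.3 in controls and 7.34 to 13.1 in GOF, and of the 7 of them tested 1 fell and none rose. None of the 6 tested genes for ligands and their release passed on adjusted p, where 11.1% of all genes tested were higher and 10.2% lower.

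Among 8 other membrane proteins of reception, 1 rose, where 6.69% of all genes tested did. Lrp2 (megalin), an endocytic receptor that can bind Hedgehog ligands, had 189, 278 and 270 fragments in controls and 4377, 2004 and 7295 in GOF. Every GOF library was far above the controls, although they spread widely, and the log2 fold change was 4.16 ± 0.44 (SE, edgeR adjusted p = 0.00102). Evc and Evc2, which act together with Smo at the base of the cilium, were lower by adjusted p alone, with log2 fold changes of -0.70 and -0.43 (edgeR adjusted p = 0.00565 and 0.0377).

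None of 19 tested cytoplasmic regulators of the Gli proteins rose or fell, where 6.69% and 5.64% of all genes tested did. By adjusted p alone, the shares of all genes tested were 11.1% higher and 10.2% lower. Sufu, which binds the Gli proteins and holds them inactive, had 1.83 ± 0.243 FPKM in controls and 2.1 ± 0.425 in GOF (SD, n = 3; log2 fold change 0.17, edgeR adjusted p = 0.639). By adjusted p alone Rab23, a negative regulator of the pathway, was higher at 0.88 (edgeR adjusted p = 0.029), as were Spop at 0.42 and Fbxw11 at 0.33, which direct Gli proteins to ubiquitination (edgeR adjusted p = 0.0272 and 0.0478). Kif7, a kinesin of the cilium tip that regulates the Gli proteins, was lower at -0.99 (edgeR adjusted p = 0.0187), just short of a fold of 2. It passed both thresholds in 4 of 15 alternatives, including those without control 0 (-1.17) and without GOF 2 (-1.01). Without control 1, control 2, GOF 0 or GOF 1 it missed the threshold on adjusted p (edgeR adjusted p = 0.0518 to 0.0727). Zic1, a relative of the Gli factors, had 5, 2 and 3 fragments in controls and 21, 81 and 10 in GOF and was too low to be tested.

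Smo and the Gli proteins are handled in the primary cilium, and 30 genes for its transport and its gate were all tested. Wdr35, a part of the intraflagellar transport complex that returns cargo from the tip, rose from 10.9 ± 1.1 to 33.1 ± 2.48 FPKM (SD, n = 3; log2 fold change 1.56 ± 0.13, SE, edgeR adjusted p = 3.83e-04), with a log2 ratio of 1.56 in animal A and 1.61 in B. By adjusted p alone 2 of the 30 were higher, Wdr35 among them, and 6 were lower. The shares of all genes tested were 11.1% and 10.2%. Ift122, of the same complex, was at -0.54, Ift172 at -0.56 and the retrograde motor gene Dync2h1 at -0.88 on the log2 fold change scale (edgeR adjusted p = 0.0496, 0.0222 and 0.0307). The transition zone genes Cc2d2a, Tmem67 and Mks1 were at -0.95, -0.68 and -0.76 (edgeR adjusted p = 0.00824, 0.0118 and 0.0282), whereas Rpgrip1l, also of the transition zone, was higher at 0.69 (edgeR adjusted p = 0.0109). Without control 0, Cc2d2a and Dync2h1 fell by more than 2-fold (-1.08 and -1.11), and with the animal as a block Cc2d2a did (-1.02, edgeR adjusted p = 0.006). Without any other library, Dync2h1 missed the threshold on adjusted p (edgeR adjusted p = 0.0764 to 0.103). The median log2 fold change of the 30 cilium genes was -0.24.

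Of 15 known targets of Hedgehog signalling in other tissues, 14 were tested and 2 rose, where 6.69% of all genes tested did. Ccnd1, the cell cycle gene for cyclin D1, went from 36.5 ± 9.84 to 134 ± 53.5 FPKM (SD, n = 3; log2 fold change 1.86 ± 0.34, SE, edgeR adjusted p = 0.00877). Grem1, which codes for a secreted BMP antagonist, went from 100 ± 48.4 to 364 ± 151 FPKM (log2 fold change 1.88 ± 0.48, SE, edgeR adjusted p = 0.0292), and this call was lost without control 1, GOF 0 or GOF 1 (edgeR adjusted p = 0.083, 0.0925 and 0.0878). Ccnd1 is also known as a target of β-catenin. The other 12 tested targets did not pass on adjusted p.

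**Figure D4:**
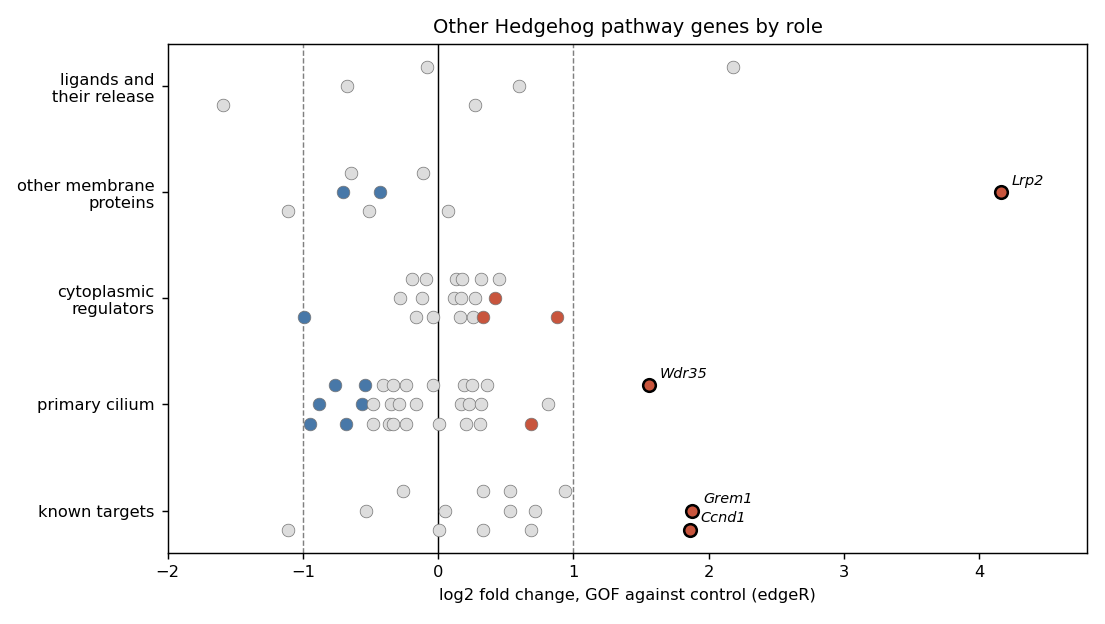
Log2 fold change (horizontal axis) of GOF against control for the other pathway genes tested, grouped by role (rows, points set apart only for legibility). A gene on more than 1 list is drawn in each. Red and blue mark an adjusted p under 0.05 for higher and lower, a thick outline marks the 4 that rose, and dashed lines mark a fold of 2. Lrp2 lies farthest to the right at 4.16, and most coloured points of the cilium row lie to the left of 0.

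In the table of lncRNAs, which was analysed on its own, 9.36% of 1389 genes tested rose or fell. Of the 3 noncoding genes in it that overlap a member or lie within 10 kb of one, none did (0 by edgeR, DESeq2 and limma, 1 at an unadjusted p under 0.05). Gm26645, at chr13:15459980-15461295 on the minus strand and 1940 bases from Gli3, had 12, 10 and 14 fragments in controls and 19, 21 and 24 in GOF. The fragments did not overlap between groups but the FPKM did, with 12.4, 6.8 and 9.28 in controls and 11.7, 17.8 and 17.8 in GOF, and the log2 fold change was 0.82 ± 0.36 (SE, edgeR adjusted p = 0.182). Gm26831 near Gli2 and Gm6556, whose own start overlaps the start of Gli3 on the opposite strand, had at most 2 fragments in any library and were not tested.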

How the data were processed

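RNA was taken from 3 control and 3 GOF cultures and sequenced as stranded libraries. Per the labels, the reads were mapped to mm10 with TopHat and quantified with Cuffdiff. The authors deposited estimated counts (unscaled fragments per gene in every library) and FPKM, which Cuffdiff scales by transcript length and between libraries. Whether counting used the strand is not given in the sources used here, and annotated genes overlap Gas1 (Gm48488), Hhip (Gm27820), Gli1 (Arhgap9, Gm47200), Gli2 (Mir6346), Gli3 (Gm6556) and Cdon (Gm24188) on the opposite strand and Ptch1 (A930032L01Rik), Smo (Gm13717), Gli3 (Gm48343), Boc (Mir3081) and Cdon (Gm25630) on the same one. A further 6 columns of values per library were not used, and 32 genes whose estimate failed in a library were left out. Identifiers were matched to GENCODE M21 (GRCm38), with a symbol found for 97.9% of all-gene and 96.4% of lncRNA entries.

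Estimated counts, of which 4.95% were not whole, were rounded and fitted over all genes in R 4.3.3 with edgeR 4.0.16 by its quasi-likelihood test after TMM scaling and filterByExpr. P-values were adjusted by Benjamini-Hochberg, and a call needed an adjusted p under 0.05 together with more than a 2-fold difference. FPKM of single genes was compared with exact two-sided permutation tests, whose p is at least 0.1 with 3 against 3 libraries. Alternatives used DESeq2 1.42.0, limma 3.58.1 on log2(FPKM + 1) and log2(FPKM + 0.1), library totals, upper-quartile factors, no filter, a minimum FPKM of 1 in 3 libraries, blocks by animal and by label number, no fold threshold, and each library left out in turn. The data.table package (1.17.8) was used to read the files.

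The titles name the animal of each culture. Deviations from the group means correlated at 0.41 and 0.5 for cultures of the same animal, and at -0.44, 0.04 and -0.46 for cultures with the same label number, so the animal pairs the samples and the number does not. Libraries of 1 animal in both groups are not independent, and the fit with the animal as a block has 1 residual degree of freedom.

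The members and gene lists were chosen with earlier results of these data known. The genes named are the 9 members, other pathway genes with an adjusted p under 0.05, Shh, Ihh, Dhh, Sufu, Kif7, the noncoding neighbours, and Axin2, Lef1, Nkd1 and Ctnnb1. A further gene under this rule is not reported here. Marker lists are named through their counts and defining genes, and Zic1 was named after its values were seen. The other marker lists gave summed FPKM of 9.8 to 11.4 in controls and 10.9 to 12.1 in GOF for endothelium, 13.4 to 23.8 and 10.5 to 30.9 for macrophages, 1670 to 2330 and 2010 to 3660 for pericytes or smooth muscle, and 11.0 to 12.4 and 3.13 to 7.09 for adipocytes. Each of these lists held calls. Kdr rose and Tek fell among the endothelial markers, and Fabp4 and Pparg fell among those of adipocytes. Csf1r rose among the macrophage markers and Cnn1 among those of pericytes or smooth muscle.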

Additional observations from a re-analysis of the deposited data

How the results depend on the processing

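Hhip and Gas1 kept their calls under all 15 alternatives with a fit, with log2 fold changes of 1.83 to 6.41 and -1.98 to -1.65. Smo had -0.78 to -0.66 with an adjusted p of at most 0.0408, Gli3 0.5 to 0.8 with 0.00663 to 0.133, Ptch1 0.32 to 0.88 with 0.0636 to 0.414, and Cdon -0.79 to -0.37 with 0.0386 to 0.458. Gli2 lost its call in 7 of 14 alternatives and, under the minimum FPKM, was not tested. Members called lower were 1 in place of 2 with the minimum FPKM, limma on either FPKM scale and the replicate block by label number, and 1 to 2 with a library left out. Members called higher were 2 in place of 1 by adjusted p alone, and 1 with any library left out. The median over members was 0.03 with no filter, which adds Gli1, and -0.02 with limma on log2(FPKM + 1), against -0.26, and -0.45 to -0.07 with a library left out. Boc turned to -0.02 with library totals and with upper-quartile factors and had -0.2 to 0.23 with a library left out, being -0.2 without control 0 and -0.09 without GOF 0. Sufu turned to -0.04 and Ctnnb1 to 0.02 without GOF 0, within ranges of -0.04 to 0.33 and -0.16 to 0.02 with a library left out.

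Other pathway genes called lower were 2 with library totals and with upper-quartile factors, 1 with the replicate block by animal and 9 by adjusted p alone, against 0, and 0 to 3 with a library left out. Those called higher were 8 by adjusted p alone, against 4, and 3 to 7 with a library left out. The cause of these changes was not tested. With the animal block, Hhip was at 5.79, Gas1 at -1.98 and Gli2 at -1.18 (edgeR adjusted p = 4.36e-04, 3.36e-04 and 0.0361), and it changed no call among the members. The label-number block gave 793 genes higher and 628 lower over all genes, against 1034 and 872, and limma on log2(FPKM + 1) gave 481 and 396. Depth limits what can be said of Gli1, Shh and Ihh, which lie at or near 0.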
